A study of Homo sapiens with 18 samples.

Results

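The IFIT family of human genes (interferon-induced proteins with tetratricopeptide repeats) was followed through an interferon course in keratinocytes labelled Sp100 WT and Sp100 KO. Its members were taken by symbol: IFIT1 (ENSG00000185745), IFIT2 (ENSG00000119922), IFIT3 (ENSG00000119917) and IFIT5 (ENSG00000152778), which are 4 of the 16472 genes in the deposited table. All 4 lie on chromosome 10, and all 4 passed the filter on low values that left 13280 genes to test. The RNA level of a further family gene, IFIT1B, was not analysed here.

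RNA sequencing was done on NIKS, a spontaneously immortal human skin keratinocyte line kept on a feeder layer of lethally irradiated J2/3T3 mouse fibroblasts. The 18 libraries form 6 groups of 3 biological replicates: Sp100 WT and Sp100 KO cells, each untreated (0 h) or kept in interferon alpha 2a at 25 ng/mL for 12 or 48 h. Each genotype is 1 line by its column names, Vec2 for WT and KO5 for KO, and what Vec2 stands for is not stated. The effect of SP100 cannot be told apart from other differences between the 2 lines. No untreated library at 12 or 48 h was analysed, and hours of culture likewise cannot be told apart from hours of interferon. The labels do not say that replicates came from separate cultures, and p-values then measure only the spread between these samples.

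Type I interferons bind the IFNAR receptor, whose kinases JAK1 and TYK2 activate transcription factors that include STAT2. STAT2 and IRF9 are parts of the complex ISGF3, which binds a DNA motif called the interferon-stimulated response element (ISRE) before the start of many antiviral genes. IFIT genes are textbook targets of that complex, and some viral sensors can also induce them through IRF3 without interferon. IFIT1 binds the 5′ end of RNA whose cap lacks 2′-O methylation and blocks its translation. IFIT3 binds IFIT1 and stabilizes it, IFIT2 pairs with both and is known for promoting cell death, and IFIT5 binds 5′-phosphorylated RNA and works without its relatives. SP100 is a component of PML nuclear bodies and is itself an interferon-induced gene.

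The promoters are shown because the ISRE is the element through which interferon is known to reach IFIT genes. The RefSeq promoter table (GRCh38.p14) held IFIT1, IFIT3 with a pair of start sites, IFIT5 and IFIT1B. It had no entry for IFIT2, so that promoter was not examined. Capitals mark matches to the ISRE core TTTCNNTTTC, searched with its reverse complement GAAANNGAAA in the 250 bases before each start. The first sequence is chr10:89392457-89392545 and the second chr10:89327791-89327893, both on the plus strand.
IFIT1 promoter: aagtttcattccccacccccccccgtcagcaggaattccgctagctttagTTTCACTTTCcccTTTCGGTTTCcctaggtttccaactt
IFIT3 promoter 1: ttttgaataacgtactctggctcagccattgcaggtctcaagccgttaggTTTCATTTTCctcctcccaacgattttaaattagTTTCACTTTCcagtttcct

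In IFIT1 the matches TTTCACTTTC and TTTCGGTTTC were separated by 3 bases, and the first began 116 bases before the start. In the IFIT3 window printed above, TTTCATTTTC began 156 and TTTCACTTTC 122 bases before the start. The other IFIT3 start had TTTCAGTTTC from base 94 and TTTCACTTTC from base 51. The IFIT5 promoter had its matches nearest to the start, TTTCGGTTTC from base 45 and TTTCGATTTC from base 19, both on the coding strand. Each of these promoters thus held 2 core matches, against 79 of all 35116 promoters with at least 2 (0.225%) and 1061 with at least 1 (3.02%). A longer form, AGTTTCNNTTTC, contains the core. It matched once in IFIT1 and at each IFIT3 start, as AGTTTCACTTTC, and in IFIT5 as both AGTTTCGGTTTC and AGTTTCGATTTC. At least 1 match of this form was in 79 of all promoters (0.225%), and 5 promoters (0.0142%) had 2 or more. A set of 202 promoters came from genes higher at 12 h in WT at an adjusted p under 0.05 (limma). Those genes rose by at least 2-fold on the log2(RPKM + 1) scale, and the promoters of IFIT1, IFIT3 and IFIT5 are in the set. Of the 202, 55 held the core (27.2%) and 20 held it at least 2 times (9.9%). The longer form was in 23 (11.4%), 4 of them with at least 2 matches (1.98%). IFIT1B had no match to either within the same window. A match describes letters and is not evidence of binding in these cells.

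The values are RPKM, reads scaled by gene length and by the reads of the library, so levels may be set side by side between genes of different length. Total reads per library are unknown, so no counting interval or lower limit of detection was given. Relative depth, recovered approximately from the lowest values, ran from 0.848 to 1.254 times the mean. SP100 was lower in each KO group, at 50.5% of the WT mean RPKM when untreated, 55.9% at 12 h and 46.9% at 48 h, without overlap between libraries. In KO it rose with interferon from a mean of 15.1 RPKM to 89.1 at 12 h and 59.8 at 48 h, beside 30.0 in untreated WT. Its RNA was therefore still counted in the KO line, and a value over the whole gene does not place the edit. All 9 keratinocyte markers were present, with summed levels of 14360 to 17270 RPKM per library. Fibroblast markers in the table (5 of 11) summed to 6.77 to 10.3 RPKM, melanocyte markers (2 of 5) to 0.98 to 2.34, and no marker in the table was at 0 throughout a group. In untreated cells, where the genotypes differed most in IFIT RNA, the fibroblast sum was 7.92 to 10.3 RPKM in WT and 8.33 to 8.93 in KO. The 2 immune markers in the table, CD14 and CD68, summed to 24.1 to 25.3 RPKM in untreated WT and 19.6 to 21.1 in untreated KO. At 12 h they summed to 53.1 to 58.9 RPKM in WT and 45.0 to 51.5 in KO, and at 48 h to 37.7 to 43.2 and 35.9 to 40.4. CD68 rose at 12 h in WT by 1.39 on the log2(RPKM + 1) scale (adjusted p = 3.89e-10, limma) while CD14 fell by 0.84 (adjusted p = 0.000792). Their part in the results was not tested.

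IFIT1, the cap sensor, had 26.4% of the tested genes below it in untreated WT and 98.7% below it at 12 h. Untreated WT libraries had an IFIT1 RPKM of 5.15, 3.86 and 3.94, WT libraries at 12 h had 618, 650 and 613, and those at 48 h had 269, 277 and 270. Untreated KO libraries had 0.81, 0.83 and 1.22, KO libraries at 12 h had 635, 629 and 621, and those at 48 h had 222, 213 and 220. The untreated KO libraries all lay under every untreated WT library, the genotypes interleaved at 12 h, and the KO libraries were all lower again at 48 h. By mean level, IFIT1 went from rank 9776 of 13280 in untreated WT to rank 169 at 12 h, and in KO from rank 12532 to rank 168.

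IFIT2, the member linked to cell death, stayed far under IFIT1 once interferon was added. Its RPKM was 3.51, 3.70 and 3.35 in the untreated WT libraries, 56.0, 59.3 and 55.2 after 12 h, and 14.4, 20.1 and 17.9 after 48 h. The KO libraries had 1.3, 1.07 and 1.27 untreated, 50.1, 53.8 and 50.4 at 12 h, and 16.2, 14.6 and 16.3 at 48 h. KO was lower without overlap in untreated cells and at 12 h, while at 48 h the lowest library of all was a WT one.

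IFIT3, the partner that stabilizes IFIT1, was the most abundant member before interferon in both genotypes. It stood at 5.82, 5.07 and 4.41 RPKM in the untreated WT libraries, 356, 377 and 358 after 12 h, and 242, 269 and 260 after 48 h. The KO libraries had 2.39, 2.38 and 2.33 untreated, 361, 349 and 354 at 12 h, and 233, 223 and 232 at 48 h. The untreated KO libraries lay between 2.33 and 2.39 RPKM, all lower than WT.

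IFIT5, the member that acts alone, was near the bottom of the tested genes before interferon in both genotypes. Its RPKM was 0.75, 0.66 and 0.70 in the untreated WT libraries, 34.0, 39.2 and 38.8 after 12 h, and 29.3, 27.8 and 28.2 after 48 h. The KO libraries had 0.68, 0.62 and 1.12 untreated, 40.9, 35.7 and 41.2 at 12 h, and 24.0, 25.1 and 23.9 at 48 h. Untreated KO and WT overlapped, with 1 KO library above and the other 2 within or below the WT range.

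**Figure D1:**
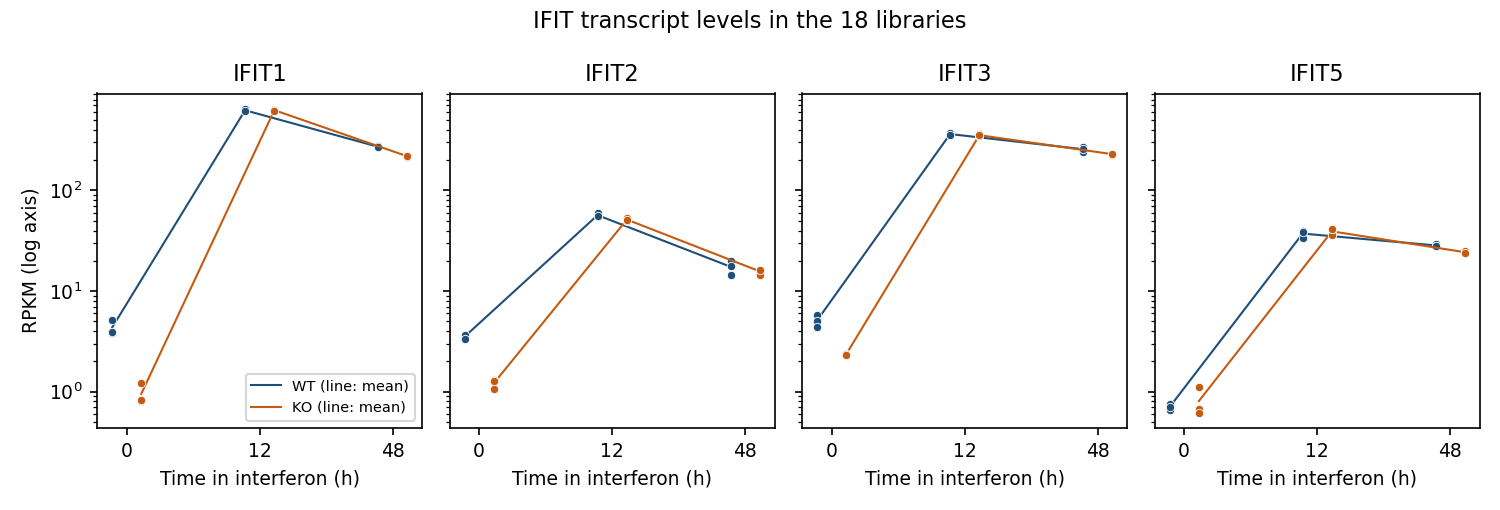
RPKM of each IFIT gene in each of the 18 libraries on a log axis, with time in interferon (0, 12 and 48 h, evenly spaced categories) across and genotype by colour. IFIT1, IFIT2 and IFIT3 start lower in KO than in WT. At 12 h the genotypes overlap for IFIT1 and IFIT3, the KO libraries of IFIT2 lie just under those of WT, and IFIT5 overlaps both untreated and at 12 h.

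Interferon raised all 4 genes in both genotypes. After 12 h in WT the mean RPKM was 145-fold higher for IFIT1, 71.3-fold for IFIT3, 53.1-fold for IFIT5 and 16.2-fold for IFIT2. In KO the corresponding ratios were 659, 150, 48.7 and 42.4. The test used log2(RPKM + 1), on which low genes change less than their ratio of means. On that scale limma gave changes in WT of 6.89 for IFIT1 (SE 0.0794, adjusted p = 2.68e-19), 5.91 for IFIT3 (adjusted p = 8.34e-20), 4.49 for IFIT5 (adjusted p = 3.35e-16) and 3.68 for IFIT2 (adjusted p = 5.27e-15). They ranked 7, 14, 25 and 40 among the rises of all 13280 genes. All 4 were called at an adjusted p under 0.05, where 44.9% of all genes were called, 15.1% higher and 29.8% lower. In KO at 12 h the changes were 8.34, 6.72, 4.49 and 4.57 for IFIT1, IFIT3, IFIT5 and IFIT2, and all 4 were called, against 48.8% of genes called, 16.0% higher and 32.8% lower. No library at 12 h overlapped an untreated one for any member in either genotype, and 18.5% of all genes in WT and 18.4% in KO were higher without overlap. With median-of-ratios scaling, the split over all genes moved from 2005 higher and 3959 lower to 2892 and 2717 in WT, and from 2123 and 4362 to 3153 and 3040 in KO. All 4 members were called higher under that scaling too.

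At 48 h every member was still far above its untreated level. The ratio of means was 63.0 for IFIT1, 50.4 for IFIT3, 40.5 for IFIT5 and 4.96 for IFIT2 in WT. It was 229, 96.9, 30.2 and 12.9 in KO. On the log2(RPKM + 1) scale the WT changes were 5.69, 5.41, 4.11 and 2.02 and the KO changes 6.82, 6.10, 3.82 and 2.92, in the same order of genes. All 4 were called in WT, where 12.8% of genes were called, 6.52% higher and 6.3% lower. All 4 were called in KO, where 13.3% were called, 5.9% higher and 7.42% lower. All 4 lay above the untreated libraries without overlap in both genotypes, as did 15.8% of all genes in WT and 12.8% in KO. The 12 h and 48 h comparisons share their untreated libraries.

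Between 12 and 48 h the members fell by unequal amounts. IFIT2 kept 30.7% of its 12 h mean RPKM in WT and 30.5% in KO. IFIT1 kept 43.4% in WT and 34.8% in KO, IFIT3 70.7% and 64.7%, and IFIT5 76.2% and 62.1%. In WT the log2(RPKM + 1) changes were -1.66 for IFIT2 (adjusted p = 2.43e-09, limma), -1.20 for IFIT1 (2.16e-08), -0.50 for IFIT3 (1.69e-05) and -0.38 for IFIT5 (0.00337). In KO they were -1.65, -1.52, -0.63 and -0.66. All 4 were called lower in each genotype, against 35.9% of genes called in WT (24.6% higher and 11.3% lower) and 41.7% in KO (27.7% higher and 14.0% lower). Libraries at 48 h were lower without overlap for all 4 in both genotypes, as for 15.4% of all genes in WT and 17.0% in KO. IFIT2 ranked 15 among the falls of all genes in WT and 21 in KO. Over all genes the split was 3267 higher and 1505 lower in WT and became 2138 and 2415 with median-of-ratios scaling. In KO it was 3678 and 1860, and became 2532 and 2803.

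Whether that fall differed between genotypes was tested as a genotype by time interaction. The estimate on the log2(RPKM + 1) scale was -0.32 for IFIT1 (unadjusted p = 0.0124, adjusted p = 0.609, limma), -0.29 for IFIT5 (unadjusted p = 0.0352, adjusted p = 0.689), -0.13 for IFIT3 and 0.008 for IFIT2. None was called, and 2 of the 4 had an unadjusted p under 0.05. Over all 13280 genes limma called 0 (0.0%), with 904 at an unadjusted p under 0.05, and 1 when only the libraries of that comparison were fitted or the variances had no trend.

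The make-up of the family shifted with interferon. Summed over the 4 genes, IFIT RNA came to 13.6 ± 1.45 RPKM in untreated WT (SD, n = 3), 1085 ± 34.9 after 12 h and 575 ± 19.96 after 48 h. KO sums were 5.34 ± 0.538, 1073 ± 10.97 and 488 ± 9.98. In untreated WT, IFIT3 made up 37.3% of the sum, IFIT1 31.5%, IFIT2 26.0% and IFIT5 5.18%. At 12 h in WT, IFIT1 was 57.8%, IFIT3 33.5%, IFIT2 5.24% and IFIT5 3.44%, so IFIT2 gave up most of its share. Untreated KO cells differed from WT in this make-up, with 44.7% IFIT3, 22.8% IFIT2, 17.7% IFIT1 and 14.9% IFIT5. At 12 h the KO shares were 58.5% IFIT1, 33.0% IFIT3, 4.79% IFIT2 and 3.66% IFIT5.

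Ratios of 2 members within a library do not depend on scaling between libraries. IFIT1 over IFIT3 was 0.847 ± 0.0739 in untreated WT, 1.72 ± 0.0115 after 12 h and 1.06 ± 0.0447 after 48 h. For KO it was 0.404 ± 0.104, 1.77 ± 0.0263 and 0.952 ± 0.00311. The genotypes did not overlap in this ratio at any time: KO was lower untreated (0.339 to 0.524 against 0.761 to 0.893), higher at 12 h (1.76 to 1.80 against 1.71 to 1.74) and lower at 48 h (0.949 to 0.955 against 1.028 to 1.11). IFIT2 over IFIT3 fell along the course, from a mean of 0.698 to 0.156 and 0.0676 in WT and from 0.513 to 0.145 and 0.0684 in KO. IFIT5 over IFIT3 was 0.139 in untreated WT and 0.342 in untreated KO, where it ranged from 0.261 to 0.481, and it was 0.103 to 0.111 by group mean in interferon. These ratios carry no test, and how often ratios of other genes separate the genotypes in this way was not examined.

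**Figure D2:**
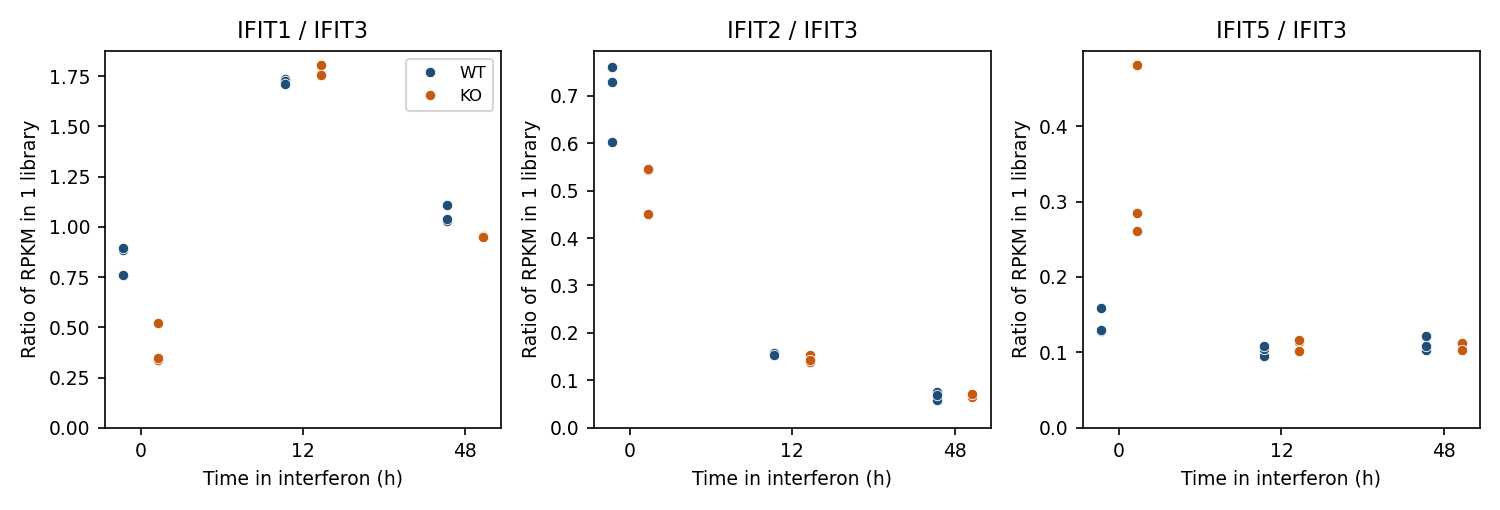
RPKM of IFIT1, IFIT2 and IFIT5 divided by that of IFIT3 in the same library (vertical axes, no unit) against time in interferon in hours, by genotype, 1 point per library. IFIT1 over IFIT3 peaks at 12 h in both lines, IFIT2 over IFIT3 falls throughout, and IFIT5 over IFIT3 is highest in untreated KO.

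The order of levels changed accordingly. In untreated WT it was IFIT3, IFIT1, IFIT2 and IFIT5, and the first pair overlapped. In untreated KO it was IFIT3, IFIT2, IFIT1 and IFIT5, with overlap between IFIT2 and IFIT1 and between IFIT1 and IFIT5. At 12 h both genotypes had IFIT1, IFIT3, IFIT2 and IFIT5, with every neighbour apart. At 48 h IFIT5 had passed IFIT2 in both genotypes. WT then had IFIT1 and IFIT3 overlapping at the top, and KO had IFIT3 above IFIT1 without overlap.

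Without interferon, 3 of the 4 members were lower in KO. The KO mean was 22.1% of the WT mean for IFIT1, 34.5% for IFIT2 and 46.4% for IFIT3, which is 4.53-fold, 2.90-fold and 2.16-fold lower. IFIT5 stood at 115%. In bulk RNA, fewer cells with a transcript and less RNA per cell cannot be told apart. On the log2(RPKM + 1) scale the differences were -1.44 for IFIT1 (95% interval -1.61 to -1.27, adjusted p = 1.43e-08, limma), -1.03 for IFIT2 (-1.22 to -0.84, adjusted p = 1.77e-06) and -0.85 for IFIT3 (-0.98 to -0.72, adjusted p = 3.04e-07). IFIT5 differed by 0.08 (-0.11 to 0.26, adjusted p = 0.721). Among all genes 4.89% were called (2.82% higher and 2.07% lower), and the 3 members ranked 25, 52 and 82 among the falls. KO libraries were lower without overlap for 3 of the 4, as for 8.85% of all genes. The split over all genes was 375 higher and 275 lower, and 276 and 313 with median-of-ratios scaling, under which the same 3 members were called lower. Of the 2 immune markers in the table, CD68, also expressed in other cells, was lower in untreated KO by 0.35 on the log2(RPKM + 1) scale (adjusted p = 0.0101, limma), and CD14 differed by 0.018 (adjusted p = 0.976).

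At 12 h the genotypes' IFIT levels were close. KO means were 100.2% of WT for IFIT1, 90.5% for IFIT2, 97.5% for IFIT3 and 105% for IFIT5. The differences on the log2(RPKM + 1) scale had 95% intervals of -0.17 to 0.17 for IFIT1, -0.33 to 0.05 for IFIT2, -0.17 to 0.10 for IFIT3 and -0.12 to 0.26 for IFIT5. By limma 0 of the 4 were called, 0 had an unadjusted p under 0.05, and 3.62% of all genes were called (1.6% higher and 2.02% lower). IFIT2 was nevertheless lower in every KO library than in any WT one, as were 9.77% of all genes. These intervals bound the differences and do not show that the levels were equal.

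At 48 h KO means were lower for each member, at 80.4% of WT for IFIT1, 90.0% for IFIT2, 89.2% for IFIT3 and 85.6% for IFIT5. IFIT1 alone was called, at -0.31 on the log2(RPKM + 1) scale (95% interval -0.48 to -0.15, adjusted p = 0.035, limma), and 4.19% of all genes were called (2.03% higher and 2.16% lower). The other differences were -0.22 for IFIT5 (adjusted p = 0.222), -0.16 for IFIT3 (adjusted p = 0.182) and -0.13 for IFIT2 (adjusted p = 0.504). By limma 3 of the 4 members had an unadjusted p under 0.05, as did 2173 of all 13280 genes. IFIT1, IFIT3 and IFIT5 were lower in KO without overlap, as were 9.29% of all genes. The IFIT1 call is marginal: its adjusted p was 0.0761 to 0.119 when any of the 6 libraries at 48 h was left out, and 0.165 with a pseudocount of 0.1.

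**Figure D3:**
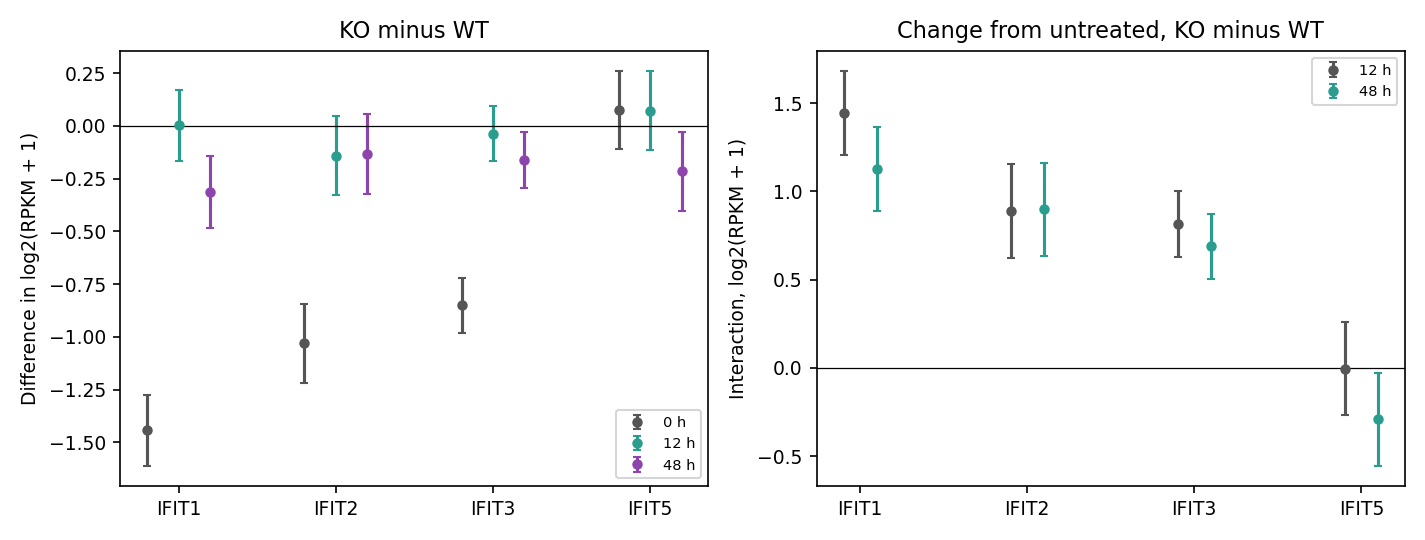
Differences on the log2(RPKM + 1) scale with 95% intervals for each IFIT gene: KO minus WT at 0, 12 and 48 h, and the difference between genotypes in the change with interferon at each time. IFIT1, IFIT2 and IFIT3 lie well under 0 untreated and near 0 at 12 h, and their interactions lie above 0, while IFIT5 stays near 0 in untreated cells and in the 12 h interaction. The 48 h interaction of IFIT5 lies under 0 and was not called.

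On a log or ratio scale, the rise with interferon was larger in KO than in WT for the 3 members that started lower. The levels reached were close or lower in KO. For IFIT1, IFIT2 and IFIT3, KO means were 100.2%, 90.5% and 97.5% of WT at 12 h. At 48 h they were 80.4%, 90.0% and 89.2%. The genotype by interferon interaction at 12 h was 1.45 for IFIT1 (SE 0.112, adjusted p = 1.34e-05, limma), 0.89 for IFIT2 (SE 0.125, adjusted p = 0.00616) and 0.81 for IFIT3 (SE 0.0876, adjusted p = 0.000305), all on the log2(RPKM + 1) scale. For IFIT5 it was -0.004 (95% interval -0.27 to 0.26, adjusted p = 0.998). Only 10 of 13280 genes were called (0.0753%), all of them higher, and 3 of the 10 were IFIT genes. At 48 h the interaction was 1.13 for IFIT1 (adjusted p = 0.000215), 0.90 for IFIT2 (adjusted p = 0.00549) and 0.69 for IFIT3 (adjusted p = 0.00217), among 11 genes called (0.0828%; 0.0678% higher and 0.0151% lower). IFIT5 went the other way, at -0.29 (95% interval -0.555 to -0.026, unadjusted p = 0.0333, adjusted p = 0.775, limma), and was not called. By construction an interaction is the KO minus WT difference in interferon less that in untreated cells. It reuses the untreated difference given above and is no separate support for it. Fitted on the libraries of the 48 h comparison alone, IFIT2 and IFIT3 missed the threshold (adjusted p = 0.119 and 0.0624) and IFIT1 was called. With a pseudocount of 0.1 the 48 h interaction of IFIT1 was 1.76.

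Outside the family, the genes whose course was most like each member's were found by the root mean square difference (RMS, log2 units) between the 6 group means of log2(RPKM + 1), each gene centred on its untreated WT mean. Nearest to IFIT3 were ISG15, a ubiquitin-like antiviral protein (RMS 0.242), IFI44 (0.360) and OAS1, an enzyme that makes the activator of RNase L (0.485). Nearest to IFIT1 were ISG15 (0.686), OAS1 (0.739) and RSAD2, which encodes viperin (0.830), and its sister IFIT3 was nearer than any of them (0.641). IFIT2 was most like GBP1, an interferon-induced GTPase (0.425), SLC15A3 (0.436) and the exonuclease gene ISG20 (0.451). IFIT5 was most like OAS3 (0.163), IFI35 (0.182) and HSH2D (0.324). On this scale a gene far under 1 RPKM untreated can lie near a member whose ratio is smaller. From untreated WT to WT at 12 h, SLC15A3 went from 0.0567 to 12.2 RPKM and IFIT2 from 3.52 to 56.8. HSH2D went from 0.0933 to 18.9 and IFIT5 from 0.703 to 37.3. By this RMS the family members were not each other's nearest in general, since IFIT5, the member closest to IFIT2, ranked 97 among all genes by nearness to it.

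Of these look-alikes, IFI44 and ISG15 were also lower in untreated KO, by 1.43 and 1.36 on the log2(RPKM + 1) scale (adjusted p = 5.95e-07 and 2.16e-06, limma). Mean RPKM went from 3.84 in untreated WT to 0.810 in untreated KO for IFI44, and from 15.9 to 5.64 for ISG15. The look-alikes of IFIT5 differed little there, by 0.05 for OAS3, 0.07 for IFI35 and 0.06 for HSH2D, and none was called. OAS1 stood at 0.16, GBP1 at -0.13, SLC15A3 at -0.07, ISG20 at -0.21 and RSAD2 at -0.28, none of them called. RSAD2, SLC15A3 and HSH2D lay far under 1 RPKM untreated, where this scale shows little of any ratio. Untreated means in WT and KO were 0.237 and 0.00667 RPKM for RSAD2, 0.0567 and 0.00667 for SLC15A3, and 0.0933 and 0.143 for HSH2D. Whether these 3 genes differ as IFI44 and ISG15 do cannot be read from such values. The interaction of IFI44 was 1.47 at 12 h (adjusted p = 0.000305) and 1.3 at 48 h (adjusted p = 0.00118), which at both times is above that of each IFIT gene. Since untreated KO is 1 of the 6 groups in the measure, likeness and these differences are not independent.

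The receptor and ISGF3 genes are the known route from interferon to the IFIT promoters, and 6 were examined here and tested. At 12 h in WT, 3 rose and 1 fell. STAT2 rose from 10.8 to 58.5 RPKM, IRF9 from 6.12 to 72.1 and JAK1 from 22.4 to 27.9, while the receptor chain IFNAR2 went from 11.4 to 7.76. In KO the same list had 3 higher and 2 lower. Between genotypes, IRF9 was lower in untreated KO (4.01 against 6.12 RPKM, -0.53 on the log2(RPKM + 1) scale, adjusted p = 0.0109, limma), and in interferon 0 of 6 were called at either time, although at 12 h 2 of them had an unadjusted p under 0.05 (0 at 48 h). The list's median KO minus WT difference was 0.026 untreated, beside 0.020 over all genes. No interaction was called in this list by limma, with 1 gene at each time under an unadjusted p of 0.05. Over all 13280 genes, 2400, 2256 and 2173 were under it between genotypes at 0, 12 and 48 h. For the interactions at 12 and 48 h, 764 and 826 were. The unadjusted counts of the lists below stand beside these. Of the interferon ligands, only IFNE was in the table (1 of 8), at 0.17 to 0.66 RPKM over all libraries, and it did not pass the filter.

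Among brakes on the pathway, 3 of 4 were tested. USP18, which binds IFNAR2 and damps signalling, was higher in untreated KO at 1.87 against 1.3 RPKM (0.32, adjusted p = 0.000629, limma). ISG15 protein stabilizes USP18 in human cells, and its RNA moved the other way in untreated KO, as given above. At 12 and 48 h 0 of 3 were called, with 1 and 0 at an unadjusted p under 0.05. The ISG15 interaction was 1.01 at 12 h (adjusted p = 0.0361) and 1.18 at 48 h (adjusted p = 0.00579), and that of USP18 was -0.38 at 48 h (adjusted p = 0.0426).

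Of 5 other interferon regulatory factors, IRF7, a factor that amplifies interferon production, was higher in KO at 12 h (52.2 against 28.4 RPKM, 0.86 on the log2(RPKM + 1) scale, adjusted p = 0.000263, limma) and at 48 h (25.1 against 15.9 RPKM, 0.63, adjusted p = 0.00352). In untreated cells 0 of 5 were called, and 2 had an unadjusted p under 0.05. Untreated IRF7 stood at 0.943 RPKM in KO against 0.54 in WT (0.33, unadjusted p = 0.0108, adjusted p = 0.123, limma). Both means lie under 1 RPKM, where this scale shows little of any ratio. Whether IRF7 differs only in interferon cannot be read from such values.

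Sensors of foreign nucleic acid and their signalling partners can raise IFIT genes without added interferon, and 7 of 7 listed genes were tested. After 12 h in interferon 6 of the 7 were themselves called higher in each genotype by limma. Whether any of them acts on the IFIT genes in these cells was not tested. In untreated KO 3 were called lower and 0 higher: DHX58, a relative of RIG-I (0.173 against 1.02 RPKM, -0.78, adjusted p = 0.000691), RIGI (3.02 against 4.36 RPKM, -0.42, adjusted p = 0.000198) and STING1, the adaptor for cytosolic DNA (28.2 against 33.4 RPKM, -0.24, adjusted p = 0.0293, all by limma). IFIH1 went the other way in untreated KO, by 0.20, and was not called (unadjusted p = 0.00374, adjusted p = 0.0647, limma). At 12 h 1 was lower, STING1. At 48 h 4 were lower: DHX58 by 0.61, TLR3 by 0.44, RIGI by 0.24 and STING1 by 0.22 on the log2(RPKM + 1) scale. The list's median difference was -0.004 in untreated cells, beside 0.020 over all genes. At 48 h it was -0.22, beside 0.010. No interaction was called here, with 3 genes at each time under an unadjusted p of 0.05.

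**Figure D4:**
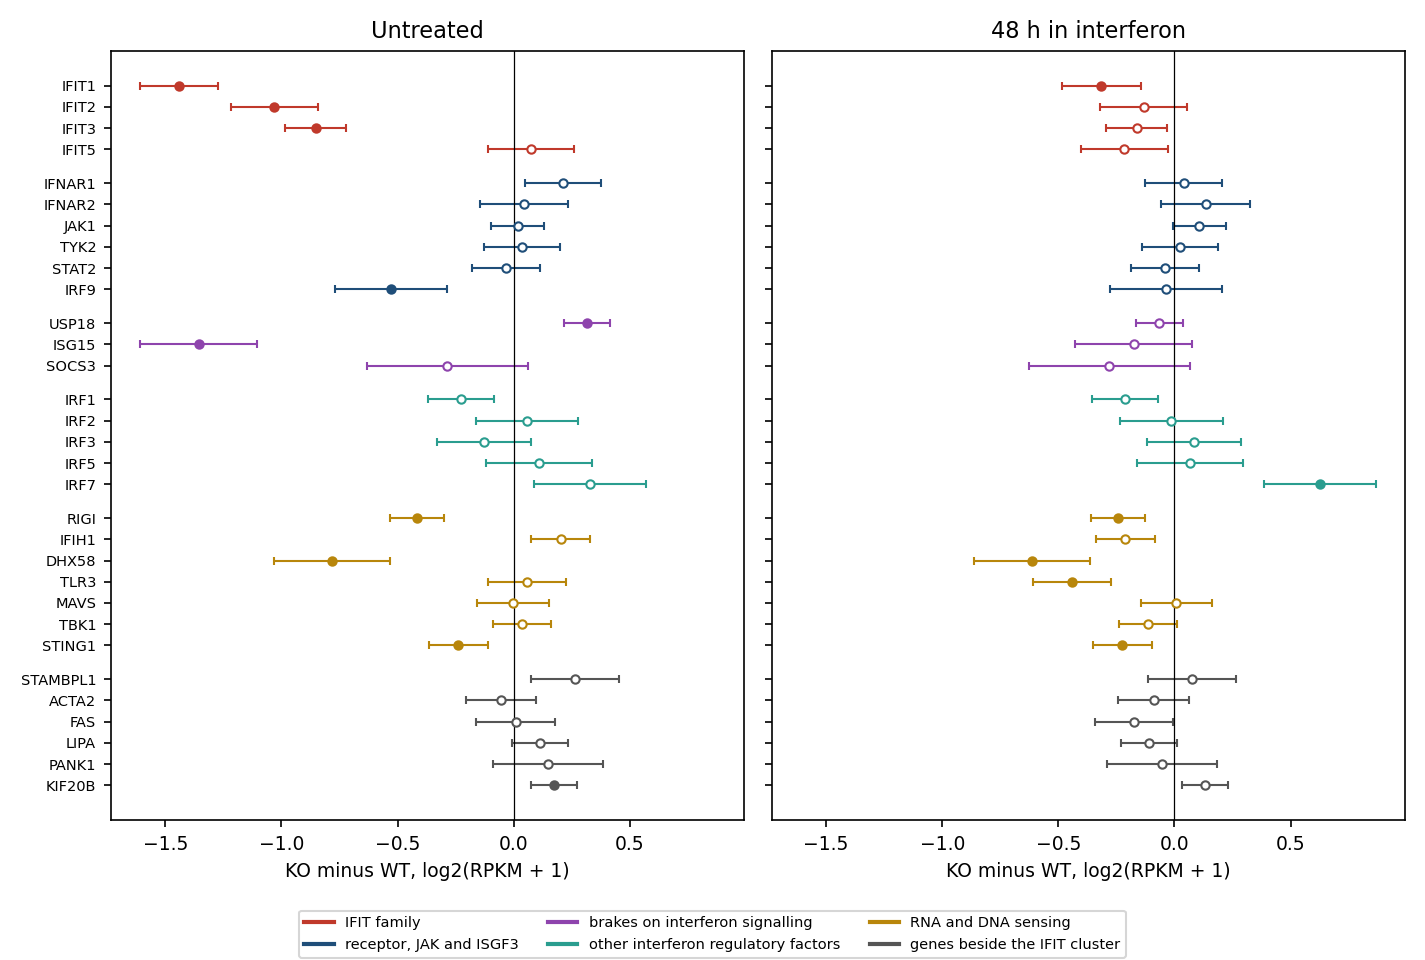
KO minus WT on the log2(RPKM + 1) scale with 95% intervals for the IFIT genes and the tested genes of 5 lists, untreated (left) and at 48 h (right), with filled points called at an adjusted p under 0.05. The untreated panel has IFIT1, ISG15, IFIT2 and IFIT3 farthest left, and the 48 h panel has IRF7 farthest right.

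The RNA targets and partners of IFIT proteins were taken as 2 more lists. Of 5 genes for cap synthesis and cap methylation, 0 differed between genotypes at any time, with 1, 1 and 0 at an unadjusted p under 0.05 at 0, 12 and 48 h (limma). CMTR1 is an enzyme that adds the 2′-O methyl mark, which is absent from the capped RNA that IFIT1 binds. It rose with interferon from 13.8 to 38.5 RPKM at 12 h in WT and from 14.3 to 39.2 in KO. Of the 13 subunits of eIF3, a translation factor that IFIT1 and IFIT2 are known to bind, 0 differed between genotypes at any time, with 1, 2 and 4 at an unadjusted p under 0.05. With interferon at 12 h, 3 subunits were higher and 7 lower in each genotype. The list's median change at 12 h in WT was -0.11, beside -0.09 over all genes, and at 48 h it was -0.11 beside -0.003, with 7 lower and 0 higher.

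Genes beside the IFIT cluster on chromosome 10 did not share its course. Of 9 listed, 6 were tested: LIPA, STAMBPL1, ACTA2, FAS, PANK1 and KIF20B. LIPA, a lysosomal lipase gene whose annotation overlaps IFIT1, IFIT2 and IFIT3 on the opposite strand in GENCODE release 29, stood at 39.7 ± 3.31 RPKM in untreated WT (SD, n = 3), 45.3 ± 0.526 after 12 h and 43.3 ± 3.14 after 48 h. The KO values were 43.0 ± 0.946, 45.0 ± 0.687 and 40.04 ± 1.72. It was called higher at 12 h in WT, by 0.19 on the log2(RPKM + 1) scale (adjusted p = 0.0126, limma), and FAS by 0.20 (adjusted p = 0.0495). The other 3 calls at 12 h in WT were falls, by 0.56 for ACTA2, a smooth muscle actin gene, 0.32 for PANK1 and 0.26 for KIF20B. In KO the same 3 genes were called lower at 12 h, by 0.77, 0.45 and 0.40, and 0 of the 6 were called higher. At 48 h 0 of the 6 were called in either genotype, with 3 in WT and 0 in KO at an unadjusted p under 0.05. Over all 13280 genes 3616 in WT and 3496 in KO were under it. In untreated cells only KIF20B differed between genotypes, higher by 0.17 in KO (adjusted p = 0.0448), and at 12 and 48 h 0 of 6 were called, with 1 and 2 at an unadjusted p under 0.05. Whether reads were counted by strand is not given in the sources used here, so reads of LIPA and of the IFIT genes could not be assigned apart with certainty.

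Reads may also be shared with other genes. Of the 50-base stretches of each gene's transcripts, 7.50% in IFIT2 (307 of 4096), 2.48% in IFIT3 (64 of 2584), 1.02% in IFIT1 (47 of 4612) and 0.0% in IFIT5 (0 of 3966) also occurred in transcripts of another gene. No stretch was shared between the 4 members. Those of IFIT1 were shared in part with IFIT1B and IFIT6P, and those of IFIT2 in part with AL353751.1, a transcript on its own strand that was not analysed here. Those of IFIT3 were shared with a long list of genes outside the family. How the counting split such reads was not tested.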

How the data were processed

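The authors deposited 1 table of RPKM values for 16472 Ensembl gene IDs and 18 libraries, rounded to 2 decimals. Per the submitters' processing notes, cutadapt, STAR 2.6.1, RSEM 1.3.0, limma 3.50.3 and the build hg19 were used. Their roles, the annotation, the gene filter and the handling of multi-mapping and mouse reads are not given in the sources used here. Stranded mRNA libraries were made, per the labels' protocols. Symbols were found for 15666 IDs.

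Count models were not applied, as RPKM is not a count. The 13280 genes that reached 1 RPKM in 3 or more libraries were transformed to log2(RPKM + 1). A mean per group was fitted over all 18 libraries in limma 3.58.1 (R 4.3.3), with variances moderated along a trend in mean level. P-values are two-sided and adjusted by Benjamini-Hochberg over all genes in each of 12 comparisons, with a threshold of 0.05. A fold change on the log2(RPKM + 1) scale understates that of low genes. Relative depth was estimated from 627 low genes, and 69.6% of paired estimates agreed within 3%. That share was taken after values far from the fitted depth had been removed, so it is no independent check. Replicates correlated at 0.985 to 0.989 across genes, and 0.85% to 1.17% of genes had the same value in a pair. The fit was tested on simulated data.

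A gene of the pathway is not reported here. The members and lists were chosen with earlier results of these data known. All members were named, up to 4 called genes per list by their largest KO minus WT difference, 3 look-alikes per member, SP100, and any ligand or neighbouring gene. JAK1, STAT2, IFNAR2, IFIH1, CMTR1, CD14 and CD68 were named after their values were seen. Alternatives were another pseudocount (0.1), no filter, a filter on mean RPKM (5 or more), scaling by median of ratios, fitting only the comparison's own libraries, untrended variances, a block for replicate number, and leaving out each library. Promoter sequences are RefSeq's, on GRCh38.p14.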

Additional observations from a re-analysis of the deposited data

Results flagged for a closer look

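The change with interferon differed between the genotypes for 3 of the 4 members, by limma's test of the interaction itself. On the log2(RPKM + 1) scale the rise at 12 h was larger in KO by 1.446 for IFIT1, 0.889 for IFIT2 and 0.814 for IFIT3, and the rise at 48 h by 1.129, 0.898 and 0.688. When only the libraries of the 48 h comparison were fitted, IFIT2 and IFIT3 lost that call (adjusted p = 0.119 and 0.0624). Mean levels at 12 h in KO were 100.2%, 90.5% and 97.5% of WT, and the untreated means 22.1%, 34.5% and 46.4%.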

How the results depend on the processing

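Of the 48 member results (4 genes in 12 comparisons), 34 were called. Of their 478 values under the alternatives, 467 kept direction and call, 31 of the 34 results kept both in every alternative, and none of the 14 uncalled results became called. IFIT1 in KO against WT at 48 h (-0.314, adjusted p = 0.035, limma) was lost with a pseudocount of 0.1 (-0.315, adjusted p = 0.165), without a variance trend (-0.314, adjusted p = 0.0533), with the replicate number as a block (-0.314, adjusted p = 0.0569) and in each of the 6 omissions of a library (-0.325 to -0.297, adjusted p = 0.0761 to 0.119), which took the members called there from 1 to 0. Its adjusted p over the other alternatives was 0.00875 to 0.0403. Fitting the libraries of the comparison alone lost the calls of the 48 h interaction of IFIT2 (0.898, adjusted p = 0.119) and IFIT3 (0.688, adjusted p = 0.0624), and took the members called from 3 to 1. Uncalled values near 0 changed sign: IFIT1 at 12 h between genotypes was -0.006 with median-of-ratios scaling and -0.012 to 0.03 with libraries omitted. With libraries omitted, IFIT5 between untreated genotypes was -0.046 to 0.148, its 12 h interaction -0.077 to 0.117, and the IFIT2 interaction with time -0.116 to 0.11. The cause was not tested.

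Over all genes, fits on the comparison's libraries alone called 945 in place of 1770 for KO at 48 h against untreated, 306, 213 and 250 in place of 650, 481 and 556 between genotypes at 0, 12 and 48 h, 6 in place of 10 and 3 in place of 11 for the interactions at 12 and 48 h, and 1 in place of 0 for the interaction with time, as did variances without a trend. With libraries omitted these counts were 1159 to 1589, then 390 to 580, 311 to 448 and 375 to 424 between genotypes, and 6 to 9 and 7 to 11 for the interactions. Same-numbered replicates did not deviate together (45 pairs, correlation -0.1 to 0.16, 5 of 18 libraries closest to their own number), so the block reflects a number only. It changed no call of a member other than IFIT1 at 48 h. Total reads are unknown, and untreated IFIT1, IFIT2 and IFIT5 in KO lie near 1 RPKM, where the pseudocount weighs most.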
